A study of Homo sapiens with 4 samples.

Results

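The regions described here are the enhancer regions of Kasumi-1 cells that were stitched from 10 or more H3K27ac peaks. They were picked by the stitched peak count at the start of each region's identifier, which gave 738 of 18061 regions with the SETD8 guide (4.09%, 95% interval 3.80% to 4.39%) and 716 of 15149 regions with the control guide (4.73%, 4.39% to 5.08%). These 1454 regions are called members below. They come from 45672 regions in 4 deposited tables.

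Kasumi-1 is an established human acute myeloid leukaemia line with the t(8;21) translocation, which joins RUNX1 to RUNX1T1. All cells carried CRISPR/Cas9 guides. The knockout cells received a guide against SETD8 (sgSETD8, genotype label SETD8 knockout), the control cells a non-targeting guide (sgNT, genotype label WT) and the titles give 2 samples per group. No label says whether the samples were separate cultures, single clones or pools. SETD8, encoded by KMT5A, is the enzyme that monomethylates lysine 20 of histone H4. H3K27ac was measured by CUT&Tag, a method where an antibody tethers a transposase to the marked chromatin, from 100000 cells per library.

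Acetylation of lysine 27 on histone H3 marks active enhancers and promoters. Enhancer peaks that lie close together are often joined into one stitched region, and the longest and strongest of these, called super-enhancers, are known from many cell types to lie at genes that define the cell, among them transcription factors and growth factor receptors. Stitching depends on the gaps between peaks, so a few peaks more or fewer can join or split a region.

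The tables form a dense pair, which holds every member, and a sparse pair, whose most stitched region has 6 peaks in sgSETD8 and 7 in sgNT. Each pair has 1 table per group, so the dense comparison has no replicate and no test, and intervals cover counting only. It is not known from which of its group's 2 samples a table was made. The tables hold no read counts, so depth is unknown. Their value column is a signal, and its quotient by the region's width is called density here. Its scale is not stated, and density at matched loci was lower in sgSETD8 by a median of 0.31 on the log2 scale over all 10646 loci found in both dense tables, so log2 density ratios below are given after that shift is taken out. The targeted gene KMT5A had 1 dense region of 3 peaks in sgSETD8 and 1 of 4 peaks in sgNT, which does not check the knockout.

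The promoters inside the members of most peaks are shown because those members include the gene's start. They are the 250 bases before the RefSeq start of ARID1B (chr6:156777128-156777377, plus strand), FNDC3B (chr3:172040281-172040530, plus strand), BCL2 (chr18:63319770-63320019, minus strand) and CDK6 (chr7:92833960-92834209, minus strand) in GRCh38.p14, 5′ to 3′, with the letters GGAA of the ETS motif, on either strand, in capitals.
ARID1B: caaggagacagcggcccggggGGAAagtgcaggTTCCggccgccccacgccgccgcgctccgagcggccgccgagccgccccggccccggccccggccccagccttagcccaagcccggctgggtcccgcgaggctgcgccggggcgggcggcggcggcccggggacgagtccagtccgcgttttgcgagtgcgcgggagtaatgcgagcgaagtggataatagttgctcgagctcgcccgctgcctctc
FNDC3B: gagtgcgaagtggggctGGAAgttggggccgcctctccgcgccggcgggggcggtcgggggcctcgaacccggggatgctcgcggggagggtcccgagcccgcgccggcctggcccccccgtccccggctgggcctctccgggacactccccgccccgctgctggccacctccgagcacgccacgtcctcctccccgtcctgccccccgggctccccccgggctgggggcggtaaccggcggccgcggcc
BCL2: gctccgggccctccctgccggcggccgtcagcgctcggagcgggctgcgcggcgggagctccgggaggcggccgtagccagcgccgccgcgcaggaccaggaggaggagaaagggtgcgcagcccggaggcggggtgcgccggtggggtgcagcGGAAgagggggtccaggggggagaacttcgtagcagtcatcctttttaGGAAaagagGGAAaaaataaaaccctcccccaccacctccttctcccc
CDK6: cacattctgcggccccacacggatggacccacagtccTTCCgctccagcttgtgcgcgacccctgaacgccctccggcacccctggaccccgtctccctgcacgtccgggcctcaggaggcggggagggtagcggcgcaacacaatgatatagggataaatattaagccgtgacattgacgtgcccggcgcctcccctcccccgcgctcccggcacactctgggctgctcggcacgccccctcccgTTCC
The ETS letters occurred 2, 1, 3 and 2 times in the promoters of ARID1B, FNDC3B, BCL2 and CDK6, and 92.7% of all 35116 RefSeq promoter windows of this length hold them. The RUNX letters TGTGGT were in 3855 of the 35116 windows, the AP-1 letters TGANTCA in 6.57%, the E-box letters CANNTG in 61.8% and the GATA letters AGATAA in 9.17%, on either strand, and each was in 0 of these 4. GC content was 76.0%, 81.2%, 70.0% and 67.6% in that order of genes, against a median of 58.0% over all windows.

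Members were long, peak-rich regions of much the same size in both groups. The median member had 14 peaks in sgSETD8 (95% interval 13 to 14, n = 738) and 14 in sgNT (13 to 15, n = 716), with most peaks 86 in sgSETD8 and 79 in sgNT. Median width was 60.8 kb in sgSETD8 (59.3 to 63.1) and 59.9 kb in sgNT (57.9 to 62.1), and the widest members spanned 359 kb in sgSETD8 and 320.1 kb in sgNT. There were 173 members of 20 or more peaks in sgSETD8 and 185 in sgNT, and 13 and 14 of 50 or more. Peaks stood slightly further apart in sgSETD8, at 2.36 per 10 kb (2.33 to 2.41), than in sgNT, at 2.50 per 10 kb (2.45 to 2.55). At the limit of the rule, 125 sgSETD8 and 108 sgNT members had exactly 10 peaks and median widths of 39.3 and 38.6 kb. Just outside it, 140 sgSETD8 and 145 sgNT regions had 9 peaks and median widths of 39.8 and 35.1 kb.

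**Figure D1:**
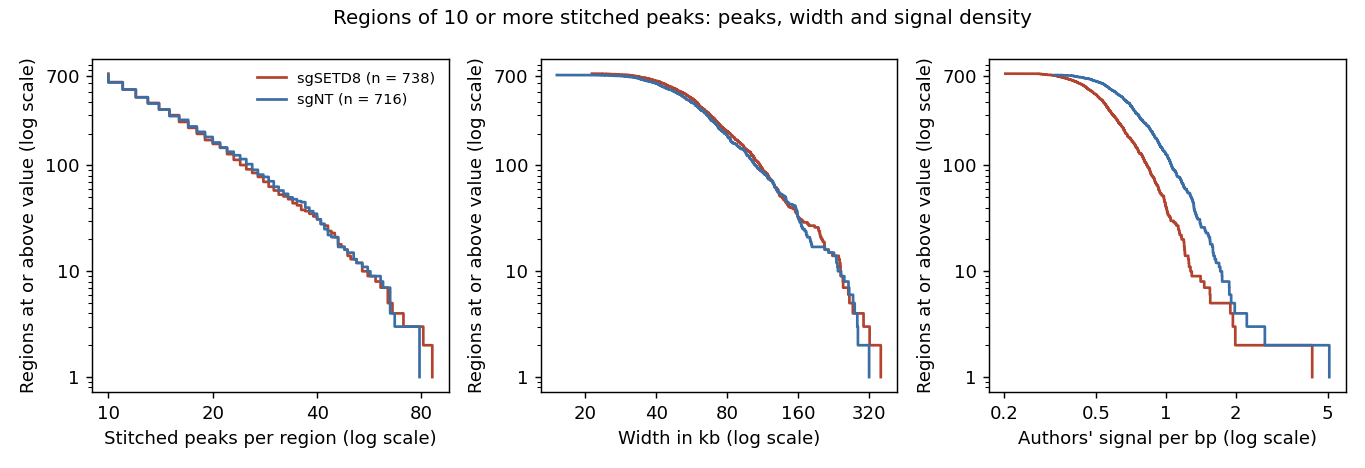
Members at or above each number of peaks (left), width in kb (middle) and signal per bp (right), all axes on log scales, for 738 sgSETD8 and 716 sgNT regions. The curves of peaks and width lie on each other, while the density curve of sgSETD8 lies below that of sgNT, with medians of 0.551 and 0.712 per bp.

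Members stood high in total signal and near the middle of their table in density. Their median density was 0.551 per bp in sgSETD8 (0.536 to 0.564) and 0.712 per bp in sgNT (0.694 to 0.727), which stands at percentile 43.6 of the regions of the sgSETD8 table and 44.2 of the sgNT table. Their total signal stood at median percentile 97.6 in sgSETD8 and 97.3 in sgNT, and members were 97 of the 100 strongest regions in sgSETD8 and 99 in sgNT. They held 27.5% of the peaks and 35.4% of the bases of the sgSETD8 table, and 30.5% of the peaks and 38.4% of the bases of the sgNT table. Since width enters both the peak count and the total signal, these shares describe the rule's choice.

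The leading member in both groups was TRIO on chromosome 5, which encodes a guanine nucleotide exchange factor. Its member covered chr5:14143849-14350624 with 35 peaks in sgSETD8 and chr5:14143867-14305702 with 28 peaks in sgNT, at 1.95 and 2.68 per bp. JARID2, an accessory subunit of the Polycomb repressive complex PRC2, had 49 peaks at 1.21 per bp in sgSETD8 and 51 peaks at 1.59 per bp in sgNT. KIT, the receptor for stem cell factor, had few peaks and the densest signal of all members, with 12 peaks at 4.29 per bp in sgSETD8 and 18 peaks at 5.09 per bp in sgNT over 70.1 and 70.2 kb. After the common shift the KIT density ratio was 0.07 on the log2 scale, the JARID2 ratio -0.08 and the ratio at the TRIO locus -0.07.

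The members with most peaks covered long stretches of long genes. ARID1B, a subunit of the SWI/SNF remodelling complex, had 86 peaks in 1 member of 359 kb in sgSETD8, while sgNT had 83 peaks at the same locus in 3 regions, the largest with 62 peaks. FNDC3B, a fibronectin type III domain protein, had 81 peaks in sgSETD8 and 79 in sgNT. The member at BCL2, the antiapoptotic protein, had 64 peaks in sgSETD8 and 67 in sgNT, and that at CDK6, a G1 cyclin-dependent kinase, 64 and 65. GNAQ, the alpha subunit of a heterotrimeric G protein, had 67 peaks at its locus in sgSETD8 and 65 in sgNT, and ETV6, an ETS family repressor, 54 in each group. Peak numbers at these 6 loci differed between the groups by 4 or fewer. Among the members with most peaks that differed more were ANGPT1 (66 peaks at the locus in sgSETD8, 36 in sgNT) and RPTOR (44 in sgSETD8, 61 in sgNT). A locus of FOXP1 (66 in sgSETD8, 57 in sgNT) was another, and all of these are described below.

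**Figure D2:**
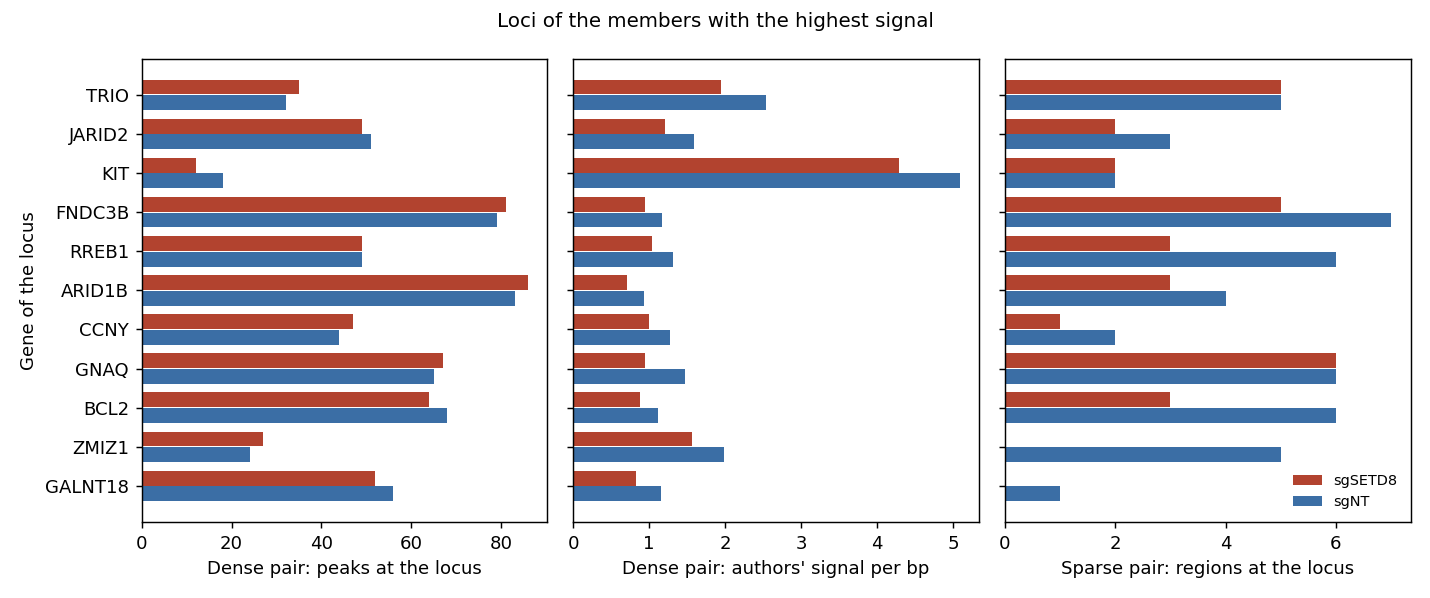
Loci of the named members with the highest signal in either group, with peaks (left) and signal per bp (middle) in the dense pair and stitched regions in the sparse pair (right), sgSETD8 above sgNT for each gene. Members with MIR or similar gene names were passed over. Peaks are close in both groups at every locus but KIT (12 in sgSETD8, 18 in sgNT), and ZMIZ1 has 0 sparse sgSETD8 and 5 sparse sgNT regions. Density is lower in sgSETD8 at each, before the common shift is taken out.

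The sparse tables were not used to pick members, and they also had regions at most of these loci. TRIO overlapped 5 sparse sgSETD8 and 5 sparse sgNT regions, GNAQ 6 and 6, KIT 2 and 2, and FNDC3B 5 and 7. BCL2 overlapped 3 sparse sgSETD8 and 6 sparse sgNT regions, ETV6 3 and 8, and CDK6 2 and 5. At ZMIZ1, a transcriptional coactivator, there were 0 sparse sgSETD8 and 5 sparse sgNT regions, and at GALNT18, an enzyme of O-glycosylation, 0 and 1.

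Every member had at least a region of the other group over it. Of the 738 sgSETD8 members, 526 overlapped an sgNT member (71.3%, 67.9% to 74.5%), 198 only a region under 10 peaks and 14 only single peaks. Of the 716 sgNT members, 536 overlapped an sgSETD8 member (74.9%, 71.5% to 78.0%), 154 only a region under 10 peaks and 26 only single peaks. The number without any region over it was 0 of 738 (up to 0.499%) and 0 of 716 (up to 0.514%), where 34.0% of all dense sgSETD8 and 22.7% of all dense sgNT regions had none. Long regions overlap more easily, and among regions of 5 to 9 peaks the shares were also low, at 0.880% in sgSETD8 and 0.905% in sgNT.

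Joining overlapping dense regions of both groups gave 20231 loci, of which 910 held a member. Both groups had a member at 518, sgSETD8 alone at 212 and sgNT alone at 180. The summed peaks over the 910 loci were 14853 in sgSETD8 and 14800 in sgNT, a ratio of 1.00, while over the loci without a member they were 31232 and 26394, a ratio of 1.18. These sets are unlike. The 910 were picked by peak count and all had regions of both groups, while those without a member include loci found in 1 dense table only. The 2 ratios are thus a description and no contrast of members with other loci. More peaks in sgSETD8 were seen at 410 of the 910 loci, fewer at 405 and equal numbers at 95. At the 518 loci with members in both groups, peak numbers were past 1.5-fold higher in sgSETD8 at 12 and lower at 11, against 23.3% higher and 15.8% lower of all 10646 loci in both dense tables, where most loci have few peaks and a single peak more moves the ratio further. Where each group had exactly 1 region, at 336 of these loci, the numbers were within 3 peaks of each other at 266 (79.2%).

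**Figure D3:**
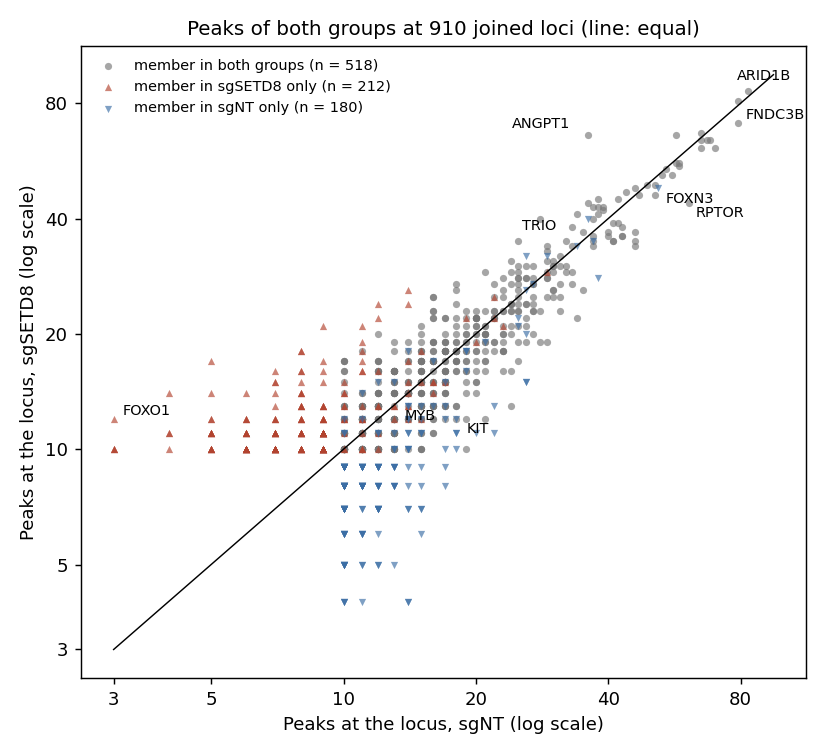
Peaks of sgSETD8 (vertical) against sgNT (horizontal) at the 910 joined loci, both axes on log scales, with the line of equal numbers. The 518 loci with members in both groups lie along the line, and the triangles of the 212 loci with a member in sgSETD8 alone and the 180 in sgNT alone crowd at 10 to 12 peaks of their own group, near the limit of the rule.

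Loci with a member in 1 group lay near the limit of 10 peaks. The largest member had 10 to 12 peaks at 149 of the 212 sgSETD8 loci (70.3%) and at 112 of the 180 sgNT loci (62.2%), against 143 of 518 (27.6%, sgSETD8 count) and 153 of 518 (29.5%, sgNT count) where both groups had one. The other group had peaks at all 392, at least 3, and under 10 in all at 156 sgSETD8 loci and 123 sgNT loci. At 45 sgSETD8 loci and 30 sgNT loci the other group had 10 or more peaks divided over several regions, and at 11 and 27 it had 10 or more peaks with single peaks among them and no member. The direction at these loci is fixed by the choice, and no test was made of it.

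At several of the strongest members of 1 group the other group's peaks were listed one by one. RNF220, a ubiquitin ligase, had 29 peaks in 1 member in sgSETD8 and 29 single peaks in sgNT. MYB, a transcription factor of blood progenitors, had 13 peaks in a member in sgSETD8 and 13 single peaks in sgNT. FOXN3, a forkhead repressor, had 48 single peaks in sgSETD8 and a member of 52 peaks in sgNT, and AFF1, a subunit of the super elongation complex, 40 single peaks and a member of 36. TEC, a cytoplasmic tyrosine kinase, had 32 single peaks in sgSETD8 and a member of 29 peaks in sgNT, and CD44, an adhesion receptor, 18 and 19. Inside these 6 loci the numbers differed by 4 peaks or fewer, MYB being named as a listed gene and not for its rank. Single peaks outside the locus, beyond the other group's member, were not counted, so the closeness holds for that window only. The whole runs of neighbouring single peaks had 36 peaks at RNF220 and 38 at MYB in sgNT. In sgSETD8 they had 53 at FOXN3, 48 at AFF1, 39 at TEC and 45 at CD44. GFOD1, the strongest sgNT member without an sgSETD8 member, differed more inside the locus, with 28 single peaks in sgSETD8 and a member of 38 peaks in sgNT. The whole sgSETD8 run there had 34 single peaks and began outside the locus. Densities, which leave gaps out for single peaks, cannot be compared at such loci.

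Other loci differed in the peaks themselves. The largest gain was at ANGPT1 on 8q, the ligand of the TIE2 receptor, with 66 peaks in 1 member in sgSETD8 and 36 peaks over 3 regions in sgNT, at 0.691 and 0.607 per bp. MAML2, a coactivator of Notch signalling, had 40 peaks in sgSETD8 and 28 in sgNT, ZFPM2, a cofactor of GATA factors, 26 and 14, and FTO, an RNA demethylase, 21 and 11. FOXO1, a forkhead transcription factor, had a member of 12 peaks in sgSETD8 and 3 peaks in sgNT. In 9 of the 10 largest gains sgNT had more regions than sgSETD8, and 4 of the 10 lay on 8q, the arm of 35 of the 910 loci.

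The largest loss was at RPTOR on 17q, the scaffold of mTORC1, with 44 peaks over 2 members in sgSETD8 and 61 peaks in 1 member in sgNT, at 0.465 and 0.749 per bp. TCF12, an E protein, had 34 peaks in sgSETD8 and 46 in sgNT at its longest locus. Over the 2 loci of members annotated to TCF12 the numbers were closer, 45 in sgSETD8 and 50 in sgNT. GRB2, an adaptor of receptor tyrosine kinases, had 22 peaks in sgSETD8 and 34 in sgNT, and the locus in IGF1R, a growth factor receptor, 35 and 46. MAPKAP1, a subunit of mTORC2, had 15 peaks over 4 regions in sgSETD8 and a member of 26 peaks in sgNT, and CRTC3, a coactivator of CREB, 15 peaks over 2 regions and a member of 26. In 7 of the 10 largest losses sgSETD8 had more regions than sgNT, among them GFOD1, where only single peaks inside the locus were counted in sgSETD8. On 15q or 17q lay 5 of the 10, the arms of 40 and 31 of the 910 loci. These arms, like 8q for the gains, were named with the values known. At RPTOR the sparse tables had 4 sgSETD8 and 6 sgNT regions, and at ANGPT1 1 and 1.

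Signal density at shared members moved together in both groups. Over the 518 loci with members in both, the log2 density ratio had a median of -0.02 (95% interval -0.04 to 0.01) and an SD across loci of 0.22. It was past 1.5-fold higher in sgSETD8 at 1 locus and lower at 9, against 10.2% higher and 14.3% lower of all 10646 loci. At the 336 loci with 1 region in each group the median was 0.00 with an SD of 0.21, and 0 were higher and 8 lower past that fold. Over all 10646 loci, most of them much shorter, the SD was 0.63.

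DHX15, an RNA helicase of splicing, had the lowest ratio, with 0.634 per bp in sgSETD8 and 1.40 per bp in sgNT over a member of 10 peaks in each, a ratio of -0.83. STAT3, a transcription factor activated by cytokines, had 0.352 per bp in sgSETD8 and 0.702 per bp in sgNT (-0.68), and BCL11A, a zinc finger transcription factor of blood cells, 0.809 and 1.55 per bp (-0.63). MAP4K3, a kinase of the JNK pathway, had 0.506 per bp in sgSETD8 and 1.02 per bp in sgNT (-0.71), and RAPGEF1, an exchange factor for RAP1, 0.420 and 0.828 per bp (-0.67). The highest ratio, 0.60, was next to AGR3, with 0.479 per bp in sgSETD8 and 0.393 per bp in sgNT, and SAMSN1, an adaptor of haematopoietic cells, had 1.15 and 1.04 per bp (0.45). In 6 of the 10 highest named loci sgSETD8 had more regions than sgNT, so that fewer gaps entered its density. Of the 10 lowest, 9 had 1 region in each group, but covered bases still differed. They were more in sgSETD8 at most of these, as at DHX15 (43901 against 30006 in sgNT) and RAPGEF6 (80081 against 39298). They were fewer at STAT3 (43897 against 48969), RAPGEF1 (63125 against 80182) and FAM120AOS (63116 against 75381). The other locus of the 10, MAP4K3, had 68890 covered bases in 1 sgSETD8 region and 43740 in 2 sgNT regions. The part of width in these ratios was not tested.

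Chromosome arms moved with these differences. Of the 10 lowest loci 8 lay on 2p, 9q or 17q, arms that hold 41 of the 518 loci. These arms were named with the values known, so the 2 counts are a description only. Member loci had median ratios of -0.26 on 2p, -0.40 on 9q and -0.31 on 17q, and the loci without a member on those arms had -0.23, -0.23 and -0.20. On 5p, 8q and 3p member loci had 0.20, 0.17 and 0.13, and the loci without a member 0.19, 0.10 and 0.15. Across the 34 arms with at least 5 such loci the medians of member and other loci had a Pearson r of 0.81 and a Spearman coefficient of 0.55, as a description, since both come from the same 2 libraries. With each ratio set against the other loci of its arm, a choice made after seeing the data, the SD was 0.20 and 2 loci were lower and 1 higher past 1.5-fold. With 1 table per group, an effect of the guide and a difference between the 2 libraries cannot be told apart.

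**Figure D4:**
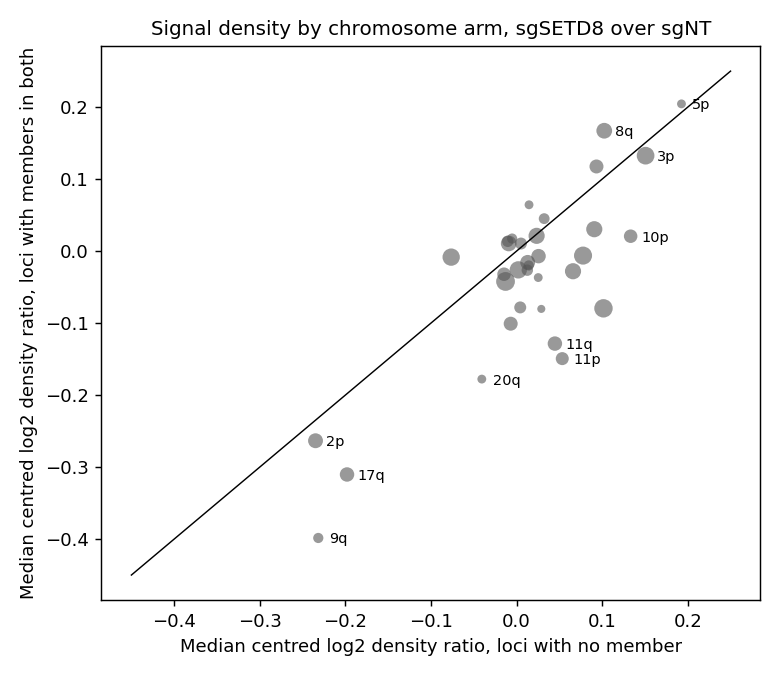
Median log2 density ratio, sgSETD8 over sgNT, less the median over all loci, by chromosome arm for loci with members in both groups (vertical) and loci without a member (horizontal), with the line of equality and point area in proportion to the number of member loci. Arms 2p, 9q and 17q are low on both axes and 5p, 8q and 3p high on both.

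Member numbers per arm were small, and only in part followed density. Arm 8q had 33 members in sgSETD8 and 22 in sgNT, a ratio of 1.5 (95% interval 0.849 to 2.70), with 530 and 442 other regions. Arm 5p had 12 and 6 members, and 8p 16 and 10. Arm 17q had 22 members in sgSETD8 and 28 in sgNT, a ratio of 0.786 (0.428 to 1.42), with 596 and 688 other regions, and 9q had 10 and 16 members. Arm 3p, high in density, had 33 and 31 members, and 22q, with a median member density ratio of -0.03, had 14 and 21. In the sparse pair 8q had 345 sgSETD8 and 133 sgNT regions, 5p 441 and 79, and 17q 231 and 293.

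The sparse pair placed fewer sgSETD8 than sgNT regions in the member loci. Of all sparse regions, 611 of 7276 in sgSETD8 lay there (8.40%, 7.77% to 9.06%) and 998 of 5186 in sgNT (19.2%, 18.2% to 20.3%). The sparse sgSETD8 table had few of its regions in dense loci of any kind, 29.3% against 79.0% for sgNT, and of those that were, 28.7% in sgSETD8 and 24.4% in sgNT lay in member loci. Sparse regions were found at 51.2% of the 518 loci in sgSETD8 and 71.2% in sgNT. At the loci with an sgSETD8 member alone the shares were 33.0% in sgSETD8 and 52.4% in sgNT, and at those with an sgNT member alone 44.4% and 60.6%. The sparse sgNT share was thus the higher at all 3 kinds of member locus, also where the member was in sgSETD8 alone. Own-group sparse regions overlapped 43.8% of sgSETD8 and 65.9% of sgNT members, against 9.83% and 22.1% of all dense regions. Among regions of 5 to 9 peaks the shares were 24.0% and 41.9%. Per Mb of locus, sparse regions were scarcer in member loci (8.87 in sgSETD8, 14.5 in sgNT) than in loci without a member (13.5 and 27.7). Per Mb of region, own-group counts were 8.83 and 15.7 in members, and 9.30 and 18.7 in regions of 5 to 9 peaks. Both measures depend on width, which was not matched. Dense regions outside the members had a median width of 1.3 kb in each group.

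**Figure D5:**
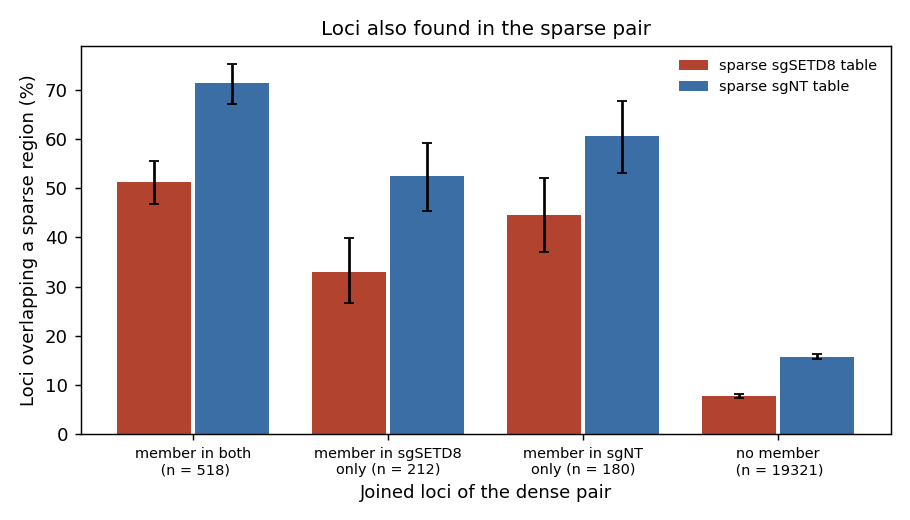
Share of joined loci of the dense pair that overlap a region of the sparse pair, with exact 95% binomial intervals over loci, for 518, 212, 180 and 19321 loci, sgSETD8 left of sgNT. The sparse sgNT table covers a larger share in each class, and the class with members in both groups is covered most (51.2% in sgSETD8, 71.2% in sgNT). Widths were not matched, with medians of 73.8 kb in that class, 52.9 kb with a member in sgSETD8 alone and 51.1 kb in sgNT alone.

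Members were mostly centred in introns. The region centre was intronic for 89.8% of sgSETD8 members (87.4% to 91.9%) and 91.1% of sgNT members (88.7% to 93.0%), against 66.5% and 67.2% of the other dense regions and 79.2% and 80.5% of regions of 5 to 9 peaks. It was intergenic for 7.59% of sgSETD8 and 6.56% of sgNT members. The whole member lay inside a single protein-coding gene for 47.2% in sgSETD8 and 49.3% in sgNT, and the protein-coding gene it overlapped most had a median length of 134 kb in sgSETD8 and 138 kb in sgNT. At least 1 start of a protein-coding gene in RefSeq lay inside 47.6% of sgSETD8 and 47.8% of sgNT members, with up to 6 in an sgSETD8 and 7 in an sgNT member.

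The members were annotated to 706 genes in sgSETD8 and 677 in sgNT, of which 490 were shared. That is 69.4% of the sgSETD8 genes (65.9% to 72.8%) and 72.4% of the sgNT genes (68.8% to 75.7%). Of the 216 genes with a member in sgSETD8 alone 14 had no dense sgNT region, and of the 187 with one in sgNT alone 9 had no dense sgSETD8 region. Over all genes, 9594 had a dense sgSETD8 region, 8610 a dense sgNT region and 10827 a dense region in either group. Genes with no region in the other dense table were thus common without a member too, and the 14 and 9 are no list of gained or lost genes. Among all genes with a dense region, 7.36% in sgSETD8 and 7.86% in sgNT had a member, and 8.25% had one in either group. Genes with 2 or more members numbered 30 in sgSETD8 and 36 in sgNT. FOXP1, a forkhead transcription factor, had 68 peaks in 3 members in sgSETD8 and 97 peaks in 2 members in sgNT. Its 2 loci had 66 and 64 peaks in sgSETD8, against 57 and 67 peaks in sgNT.

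Of 55 blood transcription factors with a dense region 19 had a member in either group (34.5%, beside 8.25% of all genes), 14 of them in both. This list and those below were chosen with earlier results of these data known, and gene length was not matched. Their shares are therefore a description and no test of enrichment. RUNX2 had 35 peaks at its locus in sgSETD8 and 37 in sgNT, ERG 28 and 23, IKZF1 21 and 25, and LMO2 13 and 14. Members in sgSETD8 alone were MYB and FOXO1, and in sgNT alone CBFB, the partner of RUNX proteins (8 and 11 peaks at the locus), and the mRNA decay factors ZFP36L1 (12 and 14) and ZFP36L2 (8 and 14). Summed over the 19 genes' loci there were 566 peaks in sgSETD8 and 550 in sgNT.

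Of 45 chromatin regulators with a dense region 13 had a member (28.9%), 11 in both groups. JMJD1C, a JmjC domain protein, had 34 peaks at its locus in sgSETD8 and 33 in sgNT, CHD7, a remodeller, 30 and 32, and ARID2, a SWI/SNF subunit, 22 and 16. EZH2, the methyltransferase of PRC2, and KDM2A, a demethylase, had members in sgNT alone, at loci of 7 and 12 and of 6 and 10 peaks. Of 52 signalling genes 24 had a member (46.2%), 18 in both, among them TRIO, GNAQ, JAK1, a cytokine receptor kinase (28 and 25 peaks), and PLCG2, a phospholipase (19 and 28). PRKCH and DOCK10 had members in sgSETD8 alone, and INPP5D, MAP2K1 and SKI were among those with members in sgNT alone, at loci where sgSETD8 still had 7 to 9 peaks.

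The remaining lists had shares nearer to or below the 8.25% of all genes. Progenitor and receptor genes had 4 of 31 (12.9%), KIT, the phosphatase PTPRC, CD44 and the receptor KDR, the last 2 in sgNT alone. Myeloid differentiation genes had 1 of 17 (5.88%), the platelet and leukocyte protein PLEK, with 18 peaks in sgSETD8 and 23 in sgNT. Cell cycle and survival genes had 3 of 27 (11.1%), CDK6, BCL2 and E2F3, and mitochondrial genes 1 of 34 (2.94%), the coactivator PPARGC1B, with 20 and 18 peaks. The lists of markers of erythroid cells and megakaryocytes, B cells, T and NK cells and non-haematopoietic cells, and that of housekeeping genes, had 0 members among their 35 genes with a dense region. Over the 65 list genes with a member, 50 had it in both groups, 4 in sgSETD8 alone and 11 in sgNT alone. Over all 893 genes with a member, 490 had it in both groups, 216 in sgSETD8 alone and 187 in sgNT alone. The difference between these splits was not tested.

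Markers of the line were not all among the members. RUNX1 had 29 dense regions in sgSETD8 and 28 in sgNT and 0 members, and CD34 17 and 17 regions and 0 members. Their peaks were listed singly, with a run of 41 peaks in sgSETD8 and 36 in sgNT at RUNX1 and of 29 and 33 at CD34, a run being defined here as neighbouring single peaks within a fixed gap. RUNX1T1, SPI1, CEBPA and MPO had 1 or 2 dense regions in each group and 0 members, and CD33 and ANPEP had 1 in sgSETD8 and 0 in sgNT, also with 0 members.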

How the data were processed

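H3K27ac CUT&Tag of Kasumi-1 cells was deposited as 4 tables of regions, grouped by the guide in their region identifiers. In the sparse pair the sgNT identifiers name only the cell line. The series design text names H3K27me1, while titles and antibody labels name H3K27ac. The submitters' processing notes name cutadapt, Bowtie2 and hg38, with no versions. Which tools called, stitched and annotated the peaks was not given in the sources used here, and their settings are unknown. The authors deposited 1 value per region, a signal equal to its width times a density that has no more than 4 decimals per bp. The number of value columns without a group was 0.

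Regions overlapping by at least 1 bp were joined into loci. Rows without a stitched count were taken as single peaks. Shares have exact Clopper-Pearson and medians order-statistic 95% intervals, which treat regions as independent. The joining was tested on 2000 simulated loci. Arms were divided at the hg38 centromeres. Genes are those of the deposited annotation, and gene lengths, starts and sequences come from RefSeq (GRCh38.p14).

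The members and the 12 gene lists were chosen with earlier results of these data known. Named loci were the first 10 by peaks, by signal, by absence of a member in the other group, by gain or loss in peaks and by density ratio, and up to 6 genes per list, those with a member in 1 group first. Accession-like, LOC, LINC, MIR and SNOR names were passed over, and some genes that the rule takes are left out of the text. RNF220, TEC, FOXN3 and others listed as single peaks were grouped after their values were seen. Alternatives were 8 or 15 peaks, 50% overlap, merged neighbours, members by width, other centring, gene starts inside the region and bases covered. The tools were matplotlib 3.10.9, scipy 1.17.1, pandas 2.3.3 and numpy 2.4.6 under Python 3.11.15.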

Additional observations from a re-analysis of the deposited data

How the results depend on the processing

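Of 61 alternative values for 15 results, 49 stayed within the 95% interval of the reported value and 12 left it. A reversal could be scored only where the reported interval excluded no difference. That held only for sparse regions per Mb in members over other regions, in sgSETD8 and in sgNT, and 0 reversed there. For the other results a change of direction was not scored. With 15 or more peaks the ratio of median widths, sgSETD8 over sgNT, was 1.07 (1.01 with 10), the share of sgNT members without an sgSETD8 member was 30.5% (25.1%), the intronic share of sgNT members was 94.4% (91.1%), the share of sgNT genes shared was 68.1% (72.4%), and sparse regions per Mb in members over other regions were 0.694 in sgSETD8 (0.607) and 0.512 in sgNT (0.444). With neighbouring regions merged, the share without a member in the other group was 25.5% in sgSETD8 (28.7%) and 20.3% in sgNT (25.1%), and with members by width 28.9% in sgNT. The median log2 density ratio of -0.02 was -0.051 with 50% overlap, -0.33 without centring and -0.040 centred on the arm. The last setting and sparse regions of 500 bp or more were chosen after seeing the data. The cause of these shifts was not tested. The ratio of member numbers, 1.03, lay between 0.997 and 1.05 in all 4 alternatives run. No paired analysis was possible because each pair has 1 table per group, and for the same reason no replicate could be left out. The density scale and read depth are unknown.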

Other observations

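Long runs of peaks that were never stitched lie beside the members. The dense sgSETD8 table had 87 runs of 10 or more neighbouring single peaks, joined here under a fixed limit on the gap, holding 2176 peaks, and the sgNT table had 72. The run with most peaks in sgSETD8 spanned MBNL1, a splicing regulator, with 63 peaks over 284 kb in sgSETD8 and 57 peaks over 206 kb in sgNT. The run with most peaks in sgNT lay at JMJD1C, with 58 peaks in sgSETD8 and 69 in sgNT. The run at VAV3, a guanine nucleotide exchange factor, had 52 peaks in sgSETD8 and 52 in sgNT, and that at TET3, a DNA demethylase, 35 in sgSETD8 and 46 in sgNT. RUNX1, a partner in the fusion gene of this line, belongs to these runs and not to the members. What left these peaks single is not given in the sources used here.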
